A study of Mus musculus with 12 samples.

Results

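The 10 genes examined here are core and output genes of the circadian clock: Per1, Per2, Per3, Cry1, Cry2, Arntl, Clock, Nr1d1, Nr1d2 and Dbp. They were chosen by name as known clock genes, several of them controlled by glucocorticoid, and all 10 were found among the 54532 genes of the deposited tables. RNA-seq was performed on polyadenylated RNA of cells sorted from the testes of male mice of the strain Tg(Pou5f1-EGFP)2Mnn at postnatal day (PN) 1. In these mice a Pou5f1 (OCT4) transgene marks germ cells with GFP, and sorting on GFP separated germ cells from the GFP-negative remainder, called somatic cells here. The dex groups received dexamethasone (dex), which activates the glucocorticoid receptor, at 10 μg per g of body weight on embryonic days E17.5 and E18.5 through the dam and at PN0 directly, and the saline groups received saline on the same days. This gave 4 groups of 3 libraries: saline germ, dex germ, saline somatic and dex somatic. Per the study, each library pooled cells from several litters dosed independently, doses were given in the morning, and testes were taken in the late morning of PN1, about a day after the last dose. All libraries therefore come from 1 time of day, and the values are levels at that time, not rhythms.

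The circadian clock of mammalian cells is a transcriptional feedback loop. CLOCK and BMAL1, the product of Arntl, bind E-box elements together and activate the Per and Cry genes, whose proteins return to the nucleus and inhibit them. The nuclear receptors REV-ERBα and REV-ERBβ, encoded by Nr1d1 and Nr1d2, repress Arntl, while DBP activates genes through D-box elements and is itself an output of the loop. Glucocorticoids are known to set the phase of clocks outside the brain, and Per1 and Per2 are known targets of the glucocorticoid receptor. The comparisons ask how far these genes differed with dex in germ cells and in somatic cells of the newborn testis, whether the difference itself differed between the populations, and how their levels compared between the populations.

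Library totals ranged from 18459692 to 25178477 counts, and mitochondrial genes took 1.53% to 2.85% of them. All 10 passed the filter on low counts in every comparison, the smallest library count being 54, for Dbp in dex germ replicate 1. Levels within a gene are given as CPM (counts relative to the library total, scaled by a TMM factor), and levels between genes only as FPKM, which divides by gene length. A count of 0 would allow up to 0.119 to 0.163 CPM, taken as 3 counts, and this limit covers counting error only. The sort markers followed the labels: 7 germ cell markers summed to 2274 to 2621 CPM in germ libraries and to 2.77 to 6.06 CPM in somatic libraries, where Dppa3 was at 0 in all 6, while 7 Sertoli cell markers summed to 5041 to 5595 CPM in somatic libraries and 43.5 to 75.6 CPM in germ libraries. In bulk RNA, fewer cells of a type and less RNA per cell cannot be told apart.

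**Figure D1:**
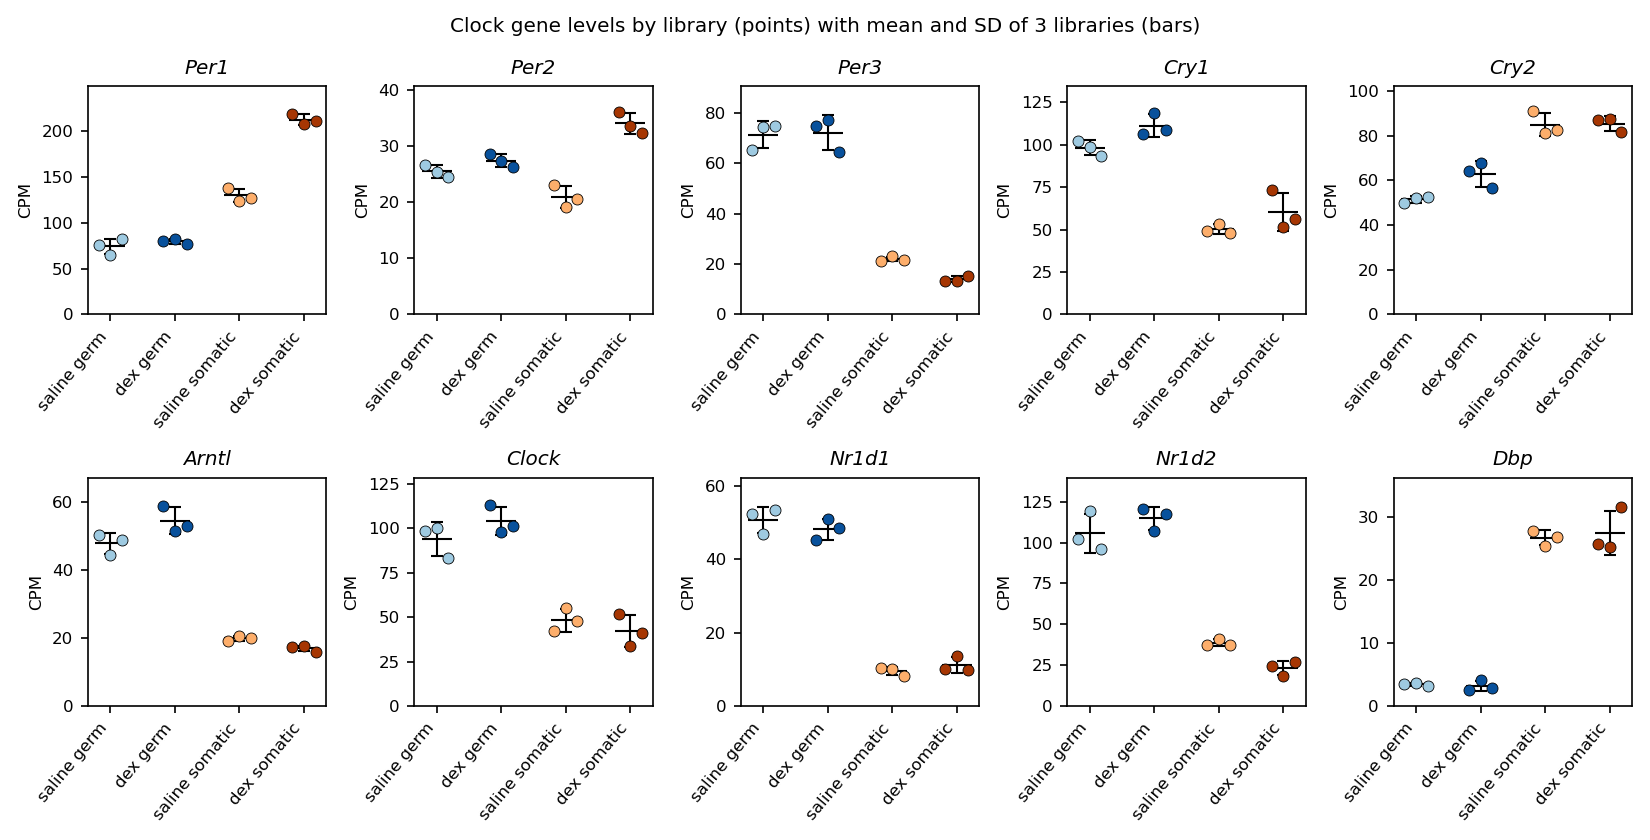
Level of each clock gene in CPM (linear axis from 0) in the 12 libraries, with points for libraries, horizontal bars for the group mean and error bars for the SD of 3. Per1 in dex somatic libraries sits between 207 and 218 CPM, above its 124 to 138 CPM in saline somatic libraries, while Dbp stays between 2.49 and 4.14 CPM in germ libraries.

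The start regions of 3 of the 4 clock genes whose level changed in somatic cells are shown because elements such as the E-box and D-box are defined by sequence. Windows of 300 bases, from 250 before to 50 after an annotated start, were taken from RefSeq on GRCm38.p6, where 9 of the 10 genes matched with 13 windows in all. Per2 had no window, so the matches below do not cover it. Some windows of Arntl and of Clock overlap each other. Capitals mark an E-box (CACGTG) and a nuclear receptor half-site (AGGTCA, here read as TGACCT on the other strand) in Per1, D-boxes (TTATGTAA) in Per3, and a half-site (AGGTCA) in Nr1d2. Each is printed 5′ to 3′ on the strand of its gene.
Per1 (first of 2 windows), chr11:69098699-69098998, plus strand: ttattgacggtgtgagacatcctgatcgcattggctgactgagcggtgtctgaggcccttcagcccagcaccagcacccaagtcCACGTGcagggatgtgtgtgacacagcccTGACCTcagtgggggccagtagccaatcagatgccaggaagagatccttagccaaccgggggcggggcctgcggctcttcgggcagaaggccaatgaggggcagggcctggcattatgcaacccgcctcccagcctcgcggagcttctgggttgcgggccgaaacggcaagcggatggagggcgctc
Per3, chr4:151044616-151044915, minus strand: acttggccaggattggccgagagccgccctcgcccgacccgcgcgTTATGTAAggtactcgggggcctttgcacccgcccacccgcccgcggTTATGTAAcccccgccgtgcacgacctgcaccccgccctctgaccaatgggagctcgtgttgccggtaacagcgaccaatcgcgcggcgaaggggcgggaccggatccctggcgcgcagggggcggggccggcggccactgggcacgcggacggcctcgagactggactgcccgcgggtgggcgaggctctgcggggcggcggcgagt
Nr1d2, chr14:18239057-18239356, minus strand: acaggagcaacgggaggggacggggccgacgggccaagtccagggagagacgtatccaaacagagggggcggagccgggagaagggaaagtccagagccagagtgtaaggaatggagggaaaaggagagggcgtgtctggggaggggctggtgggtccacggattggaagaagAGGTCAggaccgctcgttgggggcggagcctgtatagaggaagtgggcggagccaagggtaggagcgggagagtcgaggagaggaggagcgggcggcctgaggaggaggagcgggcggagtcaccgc
The Per1 E-box began 166 bases before the start and its half-site 137 bases before, the Per3 D-boxes 205 and 158 bases before, and the Nr1d2 half-site 77 bases before. Searched on both strands, the E-box was in 2 of the 13 windows (Per1 and Cry1) and in 7.15% of all 32851 windows of this length, and the D-box was in 1 of 13 against 0.938% of all. AGGTCA was in 4 of 13 windows (Per1, Arntl, Clock and Nr1d2) and in 16.3% of all. The glucocorticoid half-site AGAACA was in 0 of the 13 windows and in 19.0% of all, and the cAMP response element TGACGTCA was in 0 of 13 and in 1.79% of all. These matches are descriptions of letters in short windows, and none is shown here to be a site of binding.

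In somatic cells, 4 of the 10 clock genes were called with dex, in both directions. Per1 and Per2 rose by about 1.67-fold and 1.66-fold, Per3 and Nr1d2 fell by 1.53-fold and 1.62-fold, and the other 6 genes did not pass the test. The calls of Per3 and Nr1d2 depended on the setting, as given below. Across all genes tested in this comparison, edgeR's quasi-likelihood test called 655 of 16766, or 3.91%, with 2.74% called higher and 1.17% lower in dex. For the clock genes the counts were 4 of 10 called, 2 higher and 2 lower. Their median log2 fold change was 0.052 beside -0.0066 over all genes tested.

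Per1 encodes a repressor of the CLOCK and BMAL1 pair and lies on chromosome 11 (69095217 to 69109960, plus strand, mm10). Its level was 218, 207 and 210.0 CPM in dex somatic replicates 1, 2 and 3 and 138, 124 and 127 CPM in the saline somatic replicates. The groups did not overlap, and the lowest dex library stood well above the highest saline library. The mean rose from 129 ± 7.34 to 212 ± 5.94 CPM (SD, n = 3 libraries each), a log2 fold change of 0.74 ± 0.081 (SE), and the adjusted p in edgeR's quasi-likelihood test was 8.02e-05, rank 36 among all genes tested. Per2, a paralog with the same role, is on chromosome 1 (91415982 to 91459324, minus strand). It stood at 36.2, 33.6 and 32.4 CPM in dex somatic libraries and 23.0, 19.2 and 20.6 CPM in saline somatic libraries. No dex library overlapped a saline library, and the log2 fold change was 0.73 ± 0.13 (SE; edgeR adjusted p = 0.00357). Both calls held with each library left out in turn.

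Per3, the remaining Period gene, whose product has been described as less essential to the loop, is on chromosome 4 (151003652 to 151044665, minus strand), inside the span of Camta1 but sharing 0 exonic bases with it. Unlike its paralogs it was lower in dex somatic libraries, at 13.4, 13.4 and 15.4 CPM against 21.4, 23.0 and 21.7 CPM in saline somatic libraries. The groups did not overlap, and the mean fell from 22.0 ± 0.903 to 14.1 ± 1.17 CPM (SD, n = 3). The log2 fold change was -0.62 ± 0.14 (SE; edgeR adjusted p = 0.0219). This call was lost in 5 of the 6 fits with a library left out, where the adjusted p of edgeR was 0.0729 without dex somatic replicate 1, 0.0764 without dex somatic replicate 2, 0.0701 without saline somatic replicate 1, 0.0558 without saline somatic replicate 2 and 0.0789 without saline somatic replicate 3. The log2 fold change in these fits stayed between -0.63 and -0.58.

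Among the Period genes the proportions of transcript moved accordingly. Measured as FPKM, Per1 was 9.17 to 11.01 times Per3 in saline somatic libraries and 23.2 to 27.8 times in dex somatic libraries, so the groups did not overlap. In germ libraries the same ratio was 1.498 to 1.97 with saline and 1.82 to 2.04 with dex, and these ranges overlapped. Per3 made up 7.97% ± 0.703 of the summed FPKM of the 3 Period genes in saline somatic libraries and 3.27% ± 0.309 in dex somatic libraries (SD, n = 3), and 29.8% ± 2.64 and 28.4% ± 1.31 in saline and dex germ libraries. These ratios are built from the values above and are given as a description.

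**Figure D2:**
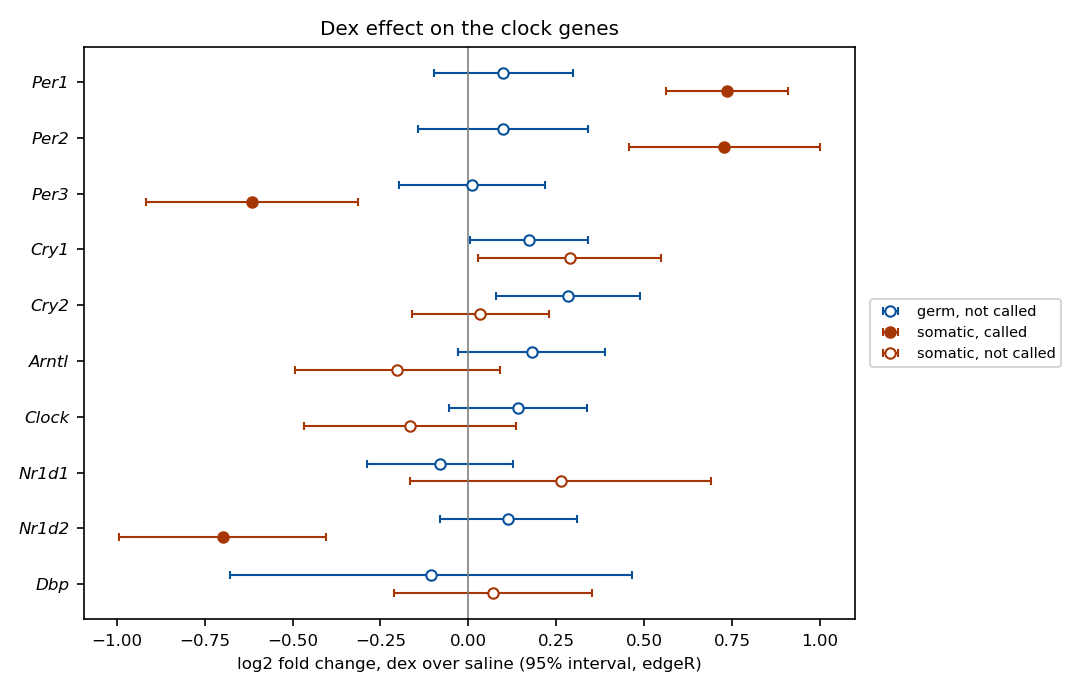
Log2 fold change of dex over saline for each clock gene (points) with its 95% interval (bars), in germ cells (blue) and somatic cells (brown), with filled points for genes called at an adjusted p of 0.05 or less. The 4 filled points are somatic: Per1 and Per2 near 0.7, and Per3 and Nr1d2 between -0.70 and -0.62.

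The Cryptochromes, which act with the PER proteins as repressors, did not pass the test in somatic cells. Cry1 (chromosome 10, 85131700 to 85185064, minus strand) was at 73.1, 51.5 and 56.5 CPM in dex somatic libraries and 49.4, 53.4 and 48.3 CPM in saline somatic libraries. Replicate 1 of dex stood apart from the other two, and the groups overlapped. The log2 fold change was 0.29 with a 95% interval of 0.028 to 0.55 (edgeR adjusted p = 0.252). Cry2 (chromosome 2, 92403646 to 92434043, minus strand) had means of 85.4 ± 3.39 and 85.0 ± 5.15 CPM in dex and saline (SD, n = 3), and its log2 fold change of 0.034 had an interval of -0.16 to 0.23 (edgeR adjusted p = 0.907).

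The activators were also not called in somatic cells. Arntl (chromosome 7, 113207465 to 113314126, plus strand), which encodes BMAL1, was at 17.32, 17.48 and 15.97 CPM in dex somatic libraries and 19.1, 20.6 and 19.9 CPM in saline somatic libraries. Every dex library was below every saline library, but the log2 fold change of -0.20 (95% interval -0.49 to 0.089) had an edgeR adjusted p of 0.524. In all, groups without overlap were seen in 5 of the 10 clock genes (the 4 called and Arntl), against 21.4% of all genes tested. Clock (chromosome 5, 76209868 to 76304792, minus strand) varied more between replicates, from 33.9 to 51.7 CPM with dex and 42.1 to 55.0 CPM with saline, and its log2 fold change was -0.17 (95% interval -0.47 to 0.13; edgeR adjusted p = 0.635).

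The REV-ERB genes gave different values from each other. Nr1d2 (chromosome 14, 18204054 to 18239127, minus strand) was at 24.7, 18.4 and 26.9 CPM in dex somatic libraries and 37.4, 41.0 and 37.6 CPM in saline somatic libraries. All dex libraries were below all saline libraries, with dex replicate 2 the lowest, and the mean fell from 38.7 ± 2.03 to 23.3 ± 4.39 CPM (SD, n = 3). The log2 fold change was -0.70 ± 0.14 (SE; edgeR adjusted p = 0.00898), called with each library left out in turn but not on FPKM with limma-trend (adjusted p = 0.0747). Nr1d1 (chromosome 11, 98767932 to 98775333, minus strand) was at 10.0, 13.7 and 9.83 CPM with dex and 10.2, 10.1 and 8.26 CPM with saline. Its groups overlapped, and the log2 fold change of 0.26 had a wide interval of -0.16 to 0.69 (edgeR adjusted p = 0.585). Nr1d1 shares 263 exonic bases, 8.55% of its own, with Thra on the opposite strand, and Thra averaged 460.1 ± 32.7 and 487 ± 17.3 CPM in dex and saline somatic libraries (SD, n = 3). The strand setting of the counting is not given in the sources used here, so reads of Nr1d1 and Thra in the shared bases cannot be told apart and the level of Nr1d1 is uncertain.

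Dbp (chromosome 7, 45705088 to 45710203, plus strand), the output activator of D-box genes, was at 25.8, 25.2 and 31.5 CPM in dex somatic libraries and 27.8, 25.4 and 26.9 CPM in saline somatic libraries. The groups overlapped, and the log2 fold change was 0.070 (95% interval -0.21 to 0.35; edgeR adjusted p = 0.858). Its level carries the same kind of uncertainty, since 539 exonic bases, 18.01% of its own, are shared with Sphk2 on the opposite strand, which averaged 58.9 ± 7.09 and 58.3 ± 5.19 CPM in dex and saline somatic libraries (SD, n = 3).

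Markers of several somatic cell types also differed between dex and saline somatic libraries. Of 6 peritubular and stromal markers all 6 were higher with dex and 4 were called (Acta2, Des, Pdgfra and Dcn), and their summed level was 3512 to 4030 CPM against 2427 to 3051 CPM. Of 7 macrophage markers all 7 were lower and 3 were called (Csf1r, Mrc1 and Lyz2), with sums of 21.8 to 31.4 CPM against 49.0 to 81.2 CPM. Of 6 Leydig cell markers all 6 were lower and 1 (Star) was called, with sums of 86.4 to 177 CPM against 120.4 to 205 CPM, and of 4 erythroid markers tested all 4 were lower and 2 (Hbb-bs and Hbb-bt) were called, with sums of 85.3 to 299 CPM against 256 to 394 CPM and Slc4a1 at 0 in the dex libraries. None of 7 Sertoli or 6 endothelial markers was called, with 1 and 3 of them at an unadjusted p under 0.05. Over all 16766 genes tested, an unadjusted edgeR p of 0.0486 was rank 2657. Of the endothelial markers 5 were lower with dex and 1 (Cdh5) was higher, with a median log2 fold change of -0.43. They summed to 249 to 323 CPM with dex and 249 to 285 CPM with saline. Most of these sums was Cdh5, which averaged 253 and 220 CPM in dex and saline somatic libraries. Of the Sertoli markers 4 were higher and 3 lower, with sums of 5041 to 5595 and 5059 to 5535 CPM. The part of these differences in the clock gene results was not tested.

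In germ cells, none of the 10 clock genes was called with dex. edgeR's quasi-likelihood test called 231 of 18550 genes in this comparison, or 1.25% (0.739% higher and 0.507% lower), and 0 of 10 clock genes, with 2 of the 10 (Cry1 and Cry2) at an unadjusted p under 0.05 and 0 called by DESeq2 or limma-trend. Many other genes lay under that limit as well: an unadjusted edgeR p of 0.0496 was rank 2723 of the 18550. The log2 fold changes ran in size from 0.010 for Per3 to 0.28 for Cry2, with 8 of 10 above 0, and their median was 0.11 beside -0.0027 over all genes tested. The groups did not overlap for 3 of the 10 (Cry1, Cry2 and Arntl), against 20.0% of all genes tested.

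The Period genes that responded in somatic cells were nearly level in germ cells. Per1 was at 80.0, 82.2 and 76.7 CPM in dex germ libraries and 75.2, 65.2 and 81.6 CPM in saline germ libraries. The groups overlapped, and the log2 fold change was 0.10 with a 95% interval of -0.099 to 0.30 (edgeR adjusted p = 0.682). Per2 was at 28.6, 27.4 and 26.3 CPM with dex and 26.6, 25.5 and 24.4 CPM with saline, a log2 fold change of 0.098 (interval -0.14 to 0.34; edgeR adjusted p = 0.748). Per3 was at 74.8, 77.2 and 64.2 CPM with dex and 65.1, 74.2 and 74.5 CPM with saline, so that its groups overlapped almost fully, and its log2 fold change of 0.010 had an interval of -0.20 to 0.22 (edgeR adjusted p = 0.978).

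The Cryptochromes and Arntl were not called in germ cells, although their groups did not overlap. Cry2 was at 64.4, 67.9 and 56.4 CPM in dex germ libraries and 49.7, 52.3 and 52.4 CPM in saline germ libraries. All dex libraries were above all saline libraries, and the log2 fold change was 0.28 ± 0.096 (SE; unadjusted p = 0.0102 and adjusted p = 0.17 in edgeR). Cry1 was at 106, 119 and 109 CPM with dex and 103, 98.9 and 93.5 CPM with saline, again without overlap, with a log2 fold change of 0.17 ± 0.079 (SE; unadjusted p = 0.0451 and adjusted p = 0.324 in edgeR). Arntl, at 58.9, 51.4 and 52.9 CPM with dex and 50.3, 44.3 and 48.7 CPM with saline, had a log2 fold change of 0.18 (95% interval -0.028 to 0.39; unadjusted p = 0.0849 and adjusted p = 0.421 in edgeR). Cry2 shares 295 exonic bases, 4.67% of its own, with D930015M05Rik on the opposite strand, whose total count was 1.34% of that of Cry2.

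Clock, the REV-ERB genes and Dbp overlapped between dex and saline germ libraries. Clock ranged over 98.0 to 113 CPM with dex and 83.1 to 99.96 CPM with saline (log2 fold change 0.14, edgeR adjusted p = 0.522). Nr1d2 was at 120.3, 107 and 117 CPM with dex and 102, 119 and 96.1 CPM with saline, and its log2 fold change of 0.11 had a 95% interval of -0.082 to 0.31 (edgeR adjusted p = 0.625). The somatic interval of the same gene, -0.99 to -0.40, lay wholly below it. Nr1d1 ranged over 45.3 to 51.0 CPM with dex and 46.8 to 53.4 CPM with saline (log2 fold change -0.081, edgeR adjusted p = 0.758). Dbp was detected with 54 to 112 counts a library with dex and 65 to 80 with saline, or 2.49 to 4.14 and 3.10 to 3.65 CPM, and its interval was the widest of the 10, from -0.68 to 0.46 around a log2 fold change of -0.11 (edgeR adjusted p = 0.901).

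Markers of other cell types also moved in the germ libraries, with 0 called by edgeR on any list. As background for the unadjusted values below, an edgeR p of 0.0496 was rank 2723 of all 18550 genes tested. The 7 Sertoli markers were all lower with dex, 6 of them at an unadjusted p under 0.05, with sums of 43.5 to 52.8 CPM against 66.0 to 75.6 CPM with saline. The 4 Leydig markers tested were all lower, 2 of them at an unadjusted p under 0.05, and the list summed to 4.70 to 8.62 CPM against 8.86 to 11.6 CPM. The 3 erythroid markers tested were all lower, 2 of them at an unadjusted p under 0.05 (Hba-a1 and Hbb-bs), and the list summed to 4.37 to 7.54 CPM against 7.67 to 9.46 CPM, with Hbb-bt at 0 in dex libraries. Of 3 macrophage markers tested 1 was higher (Mrc1, log2 fold change 0.89, edgeR adjusted p = 0.0508) and 2 were lower (Csf1r and Cd68). The list summed to 14.7 to 16.9 CPM against 9.28 to 13.2 CPM. The higher sum came from Mrc1, which averaged 11.4 and 6.13 CPM in dex and saline germ libraries. Adgre1, Fcgr1, C1qa and Lyz2, too low to test, had lower means with dex. Peritubular and stromal markers summed to 44.5 to 46.6 CPM against 37.3 to 42.3 CPM, and endothelial markers to 51.0 to 64.3 CPM against 49.3 to 58.3 CPM, with 0 and 1 at an unadjusted p under 0.05. The part of these differences in the clock gene values was not tested.

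The difference between the populations was tested itself, as the dex effect in germ cells minus that in somatic cells in a fit of all 12 libraries. edgeR called 170 of 20551 genes, or 0.827% (0.414% higher and 0.414% lower), and 2 of the 10 clock genes. Per1 responded less in germ cells, by -0.60 ± 0.12 on the log2 scale (SE; edgeR adjusted p = 0.0282). Nr1d2, which fell in somatic cells, had a difference of 0.85 ± 0.17 (SE; edgeR adjusted p = 0.0303). Per3 (0.66 ± 0.16, edgeR adjusted p = 0.0592) and Per2 (-0.60 ± 0.17, edgeR adjusted p = 0.109) had differences of similar size that did not pass. Per3 did pass with DESeq2, library totals, no filter on low counts, or 10 counts in every library, and Per2 with DESeq2. Arntl (0.42), Clock (0.34), Nr1d1 (-0.31), Cry2 (0.28), Dbp (-0.14) and Cry1 (-0.080) had edgeR adjusted p of 0.244 to 0.919. Both calls were close to the threshold. The Per1 call was lost without dex germ replicate 1 or 3, saline germ replicate 1 or 3, dex somatic replicate 1, 2 or 3, or saline somatic replicate 2 or 3, with edgeR adjusted p of 0.0534 to 0.0753, and the Nr1d2 call without dex germ replicate 1 or 3, saline germ replicate 1 or 3, dex somatic replicate 2, or saline somatic replicate 3, with edgeR adjusted p of 0.0547 to 0.0832. The differences in these fits stayed between -0.62 and -0.54 for Per1 and between 0.71 and 0.87 for Nr1d2.

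Between germ and somatic cells the log2 fold changes of the clock genes reached 3.11 in size. These comparisons use the same libraries as the dex comparisons. In saline libraries 9 of the 10 genes were called, 6 higher and 3 lower in germ cells, where edgeR called 76.5% of 18870 genes tested (39.8% higher and 36.7% lower). In dex libraries 10 of 10 were called, 6 higher and 4 lower, where edgeR called 76.3% of 18778 genes (40.5% higher and 35.7% lower). The counts differ by Per2 alone, and in most other settings they were 10 with saline and 9 with dex. With a library left out they were 9 with saline and 9 or 10 with dex. For all 10 genes the germ and somatic libraries did not overlap in either comparison, as for 79.7% of all genes tested with saline and 79.9% with dex. A call alone therefore sets no clock gene apart. Size did not set the 10 apart as a set with saline either. Taken without sign, their median log2 fold change was 1.112, beside 1.205 over all genes tested. With dex it was 1.547 beside 1.258. The sizes and directions of each gene follow. When library totals replaced TMM, the median of all genes, with sign, moved from 0.072 to 0.21 in saline and from 0.12 to 0.30 in dex. The direction of every clock gene stayed the same under each scaling.

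**Figure D3:**
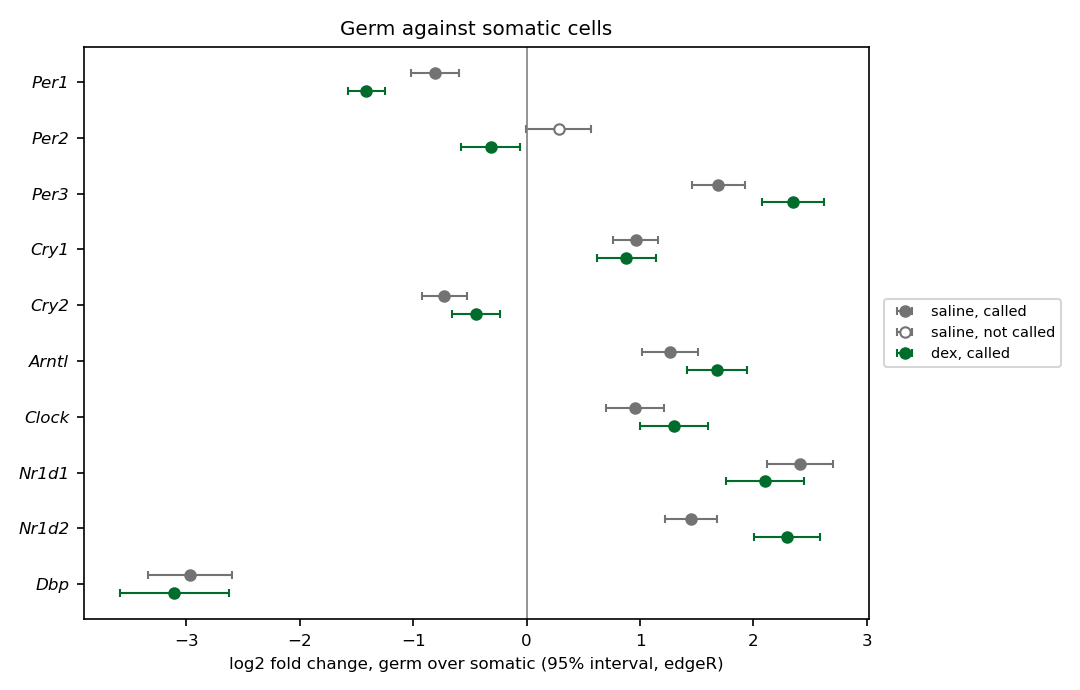
Log2 fold change of germ over somatic cells for each clock gene (points) with its 95% interval (bars), in saline (grey) and dex (green) libraries, with filled points for genes called at an adjusted p of 0.05 or less. Nr1d1 lies above 2 and Dbp near -3 in both, and Per2 is on opposite sides of 0, at 0.28 with saline and -0.32 with dex.

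The activators and the REV-ERB genes were higher in germ cells. Arntl averaged 47.8 ± 3.11 CPM in saline germ and 19.9 ± 0.783 CPM in saline somatic libraries (SD, n = 3), a log2 fold change of 1.26 (edgeR adjusted p = 6.38e-07). Clock averaged 93.9 ± 9.41 and 48.3 ± 6.48 CPM, a log2 fold change of 0.96 (edgeR adjusted p = 1.14e-05). For Arntl the difference in dex libraries was 1.68 and for Clock 1.30. Nr1d1 stood furthest above somatic cells of the 10 with saline, at 50.9 ± 3.53 against 9.53 ± 1.11 CPM (log2 fold change 2.41, edgeR adjusted p = 8.26e-09). In dex libraries its log2 fold change was 2.10, below those of Per3 and Nr1d2. Thra, which shares bases with it, went the other way, averaging 17.9 ± 3.59 CPM in saline germ libraries against 487 ± 17.3 CPM in saline somatic libraries. Nr1d2 averaged 105.7 ± 11.97 and 38.7 ± 2.03 CPM (log2 fold change 1.45, edgeR adjusted p = 9.16e-08), and its log2 fold change was 2.30 with dex.

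The repressors were divided. Per3 was higher in germ cells, at 71.3 ± 5.36 against 22.0 ± 0.903 CPM with saline (SD, n = 3; log2 fold change 1.69, edgeR adjusted p = 2.49e-08) and by 2.35 on the log2 scale with dex. Cry1 was also higher, at 98.3 ± 4.54 against 50.4 ± 2.70 CPM (log2 fold change 0.96, edgeR adjusted p = 9.25e-07) and by 0.88 with dex. Per1 and Cry2 were lower in germ cells. Per1 averaged 74.0 ± 8.29 against 129 ± 7.34 CPM with saline (log2 fold change -0.81, edgeR adjusted p = 9.38e-06) and differed by -1.41 with dex. Cry2 averaged 51.5 ± 1.52 against 85.0 ± 5.15 CPM (log2 fold change -0.73, edgeR adjusted p = 1.4e-05) and differed by -0.44 with dex. Per2 was the exception in direction: it was 25.5 ± 1.095 CPM in saline germ and 20.9 ± 1.93 CPM in saline somatic libraries (log2 fold change 0.28, edgeR adjusted p = 0.0689), and 27.4 ± 1.17 and 34.1 ± 1.93 CPM in dex germ and dex somatic libraries (log2 fold change -0.32, edgeR adjusted p = 0.0299). The side of the threshold depended on the setting in both. The saline value passed the test in 6 of 8 other settings (DESeq2, relative log expression size factors, library totals, 10 counts in every library, limma-trend and the fit of all 12 libraries), with adjusted p of 0.0141 to 0.0378. It was not called in any fit with a library left out. The dex value did not pass in 7 of 8 (all but the fit of all 12 libraries), with adjusted p of 0.0541 to 0.329. The dex call was also lost without dex germ replicate 1, 2 or 3 or dex somatic replicate 1, at edgeR adjusted p of 0.0535, 0.0738, 0.111 and 0.0851.

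Dbp had the largest difference of the 10 between the populations. It was 3.42 ± 0.285 CPM in saline germ and 26.7 ± 1.19 CPM in saline somatic libraries (SD, n = 3), 7.82-fold lower in germ cells (log2 fold change -2.97 ± 0.17 SE, edgeR adjusted p = 9.4e-09), and 8.61-fold lower in dex libraries (log2 fold change -3.11, edgeR adjusted p = 6.14e-08). Sphk2, which shares exonic bases with it on the other strand, was 2.16-fold lower in germ cells with saline. What share of the reads given to Dbp came from Sphk2 was not tested.

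Scaled for length, the genes ranked differently in the populations. In saline germ libraries Cry1 led at 29.97 ± 1.16 FPKM, followed by Nr1d2 at 19.9 ± 2.21, Nr1d1 at 16.8 ± 1.21, Per1 at 13.4 ± 1.55 and Cry2 at 8.30 ± 0.299 (SD, n = 3). Each of these was above the next in all 3 libraries. Per3 (7.56), Clock (6.96) and Arntl (6.47) came next, and neighbours among them overlapped. Per2 (4.44) and Dbp (1.16) were lowest. In saline somatic libraries Per1 led at 21.6 ± 1.63 FPKM, followed by Cry1 at 14.1 ± 0.374, Cry2 at 12.6 ± 0.991, Dbp at 8.37 ± 0.579 and Nr1d2 at 6.70 ± 0.168, again each above the next without overlap. Per2 (3.36), Clock (3.29) and Nr1d1 (2.90) overlapped with their neighbours, and Arntl (2.47) and Per3 (2.15) were lowest. Dbp was thus at place 10 of 10 in germ cells and at place 4 in somatic cells, while Per3 was at places 6 and 10. With dex, Per1 reached 36.0 ± 0.641 FPKM in somatic cells and 38.0% ± 0.942 of the summed FPKM of the 10 genes, against 27.8% ± 1.098 with saline, while in germ cells its share was 11.6% ± 0.110 with dex and 11.6% ± 1.39 with saline.

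**Figure D4:**
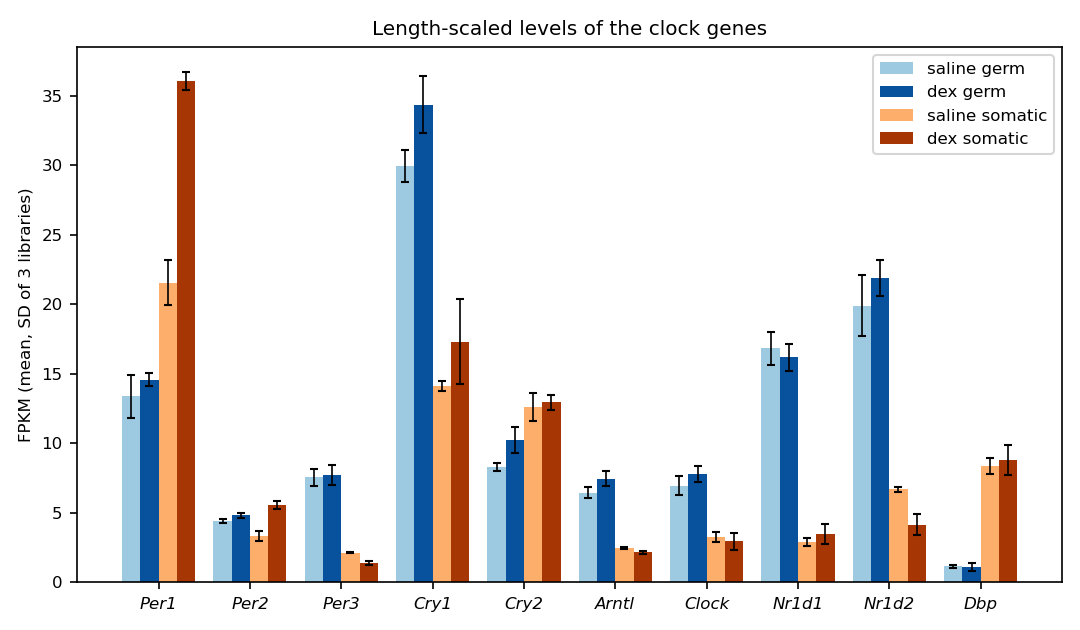
Length-scaled level of each clock gene in FPKM (linear axis from 0), with bars for the mean and error bars for the SD of 3 libraries in each of the 4 groups. Cry1 is highest in both germ groups, at 29.97 and 34.4 FPKM, and Per1 in both somatic groups, at 21.6 and 36.0 FPKM.

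The sum of the Period genes against Arntl gave a partial view of the loop at this time of day, with Cry1, Cry2 and Clock left out. The summed FPKM of Per1, Per2 and Per3 was 3.69 to 4.08 times that of Arntl in saline germ libraries and 3.43 to 3.99 times in dex germ libraries, so the groups overlapped. In somatic libraries it was 10.1 to 12.1 times with saline and 18.9 to 20.9 times with dex, without overlap. The ratio repeats the values of Per1 and Arntl above and was not tested.

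Beyond the 10, a list of 22 genes associated with the clock was read from the same fits: paralogs of the activators, ROR receptors, other bZIP and bHLH factors, kinases and ubiquitin ligases that act on PER and CRY, and known outputs. Of these 21 could be tested with dex, Rorb being too low. In somatic cells 1 was called (3.91% of all genes) and 6 were at an unadjusted p under 0.05. That gene was Tef, which encodes a bZIP factor of the same family as DBP that binds D-boxes. It was at 229.8, 205 and 207 CPM in dex somatic libraries and 293, 352 and 315 CPM in saline somatic libraries, without overlap, and its log2 fold change was -0.55 ± 0.080 (SE; edgeR adjusted p = 0.000702). In germ cells edgeR called 0 of the 21 (1.25% of all genes), with 7 at an unadjusted p under 0.05, and Tef stood at 137 ± 13.9 and 154 ± 8.34 CPM with dex and saline (SD, n = 3). The median log2 fold change of the list was -0.12 in somatic cells and 0.034 in germ cells, beside -0.0066 and -0.0027 over all genes tested. None of the 22 was called for the difference between the populations by edgeR (0.827% of all genes), with 6 at an unadjusted p under 0.05. Over all genes tested, an unadjusted edgeR p of 0.0486 was rank 2657 of 16766 in somatic cells. In germ cells 0.0496 was rank 2723 of 18550, and for the difference 0.043 was rank 2489 of 20551.

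**Figure D5:**
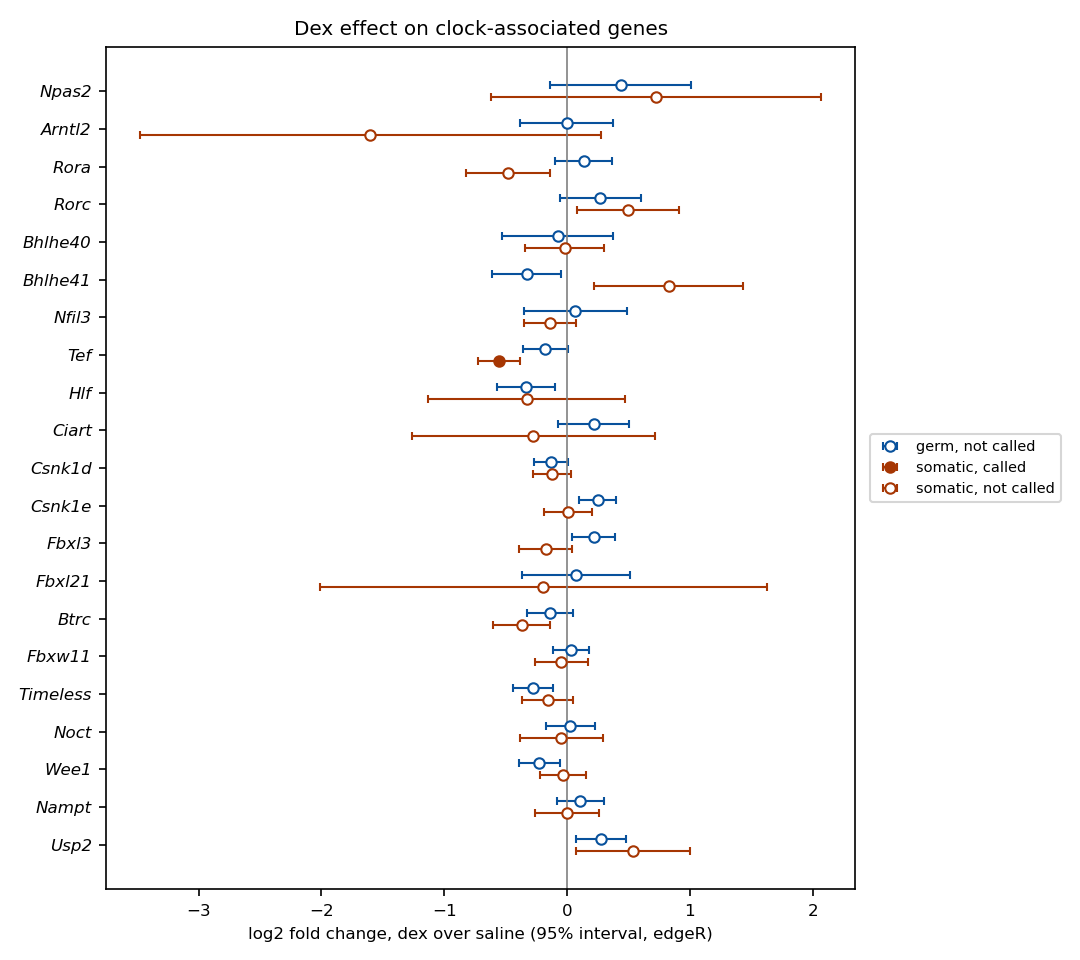
Log2 fold change of dex over saline for 21 clock-associated genes (points) with 95% intervals (bars), in germ cells (blue) and somatic cells (brown), with a filled point for a gene called at an adjusted p of 0.05 or less. Tef in somatic cells, at -0.55, is the only filled point, and genes with few counts have intervals several log2 units wide.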

How the data were processed

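The authors aligned paired-end reads of poly(A) RNA to mm10 with HISAT2 2.0.5 and counted reads per gene with featureCounts 1.5.0-p3. These raw counts, for 54532 genes in 12 libraries, form the deposited count table, and the deposited FPKM table was computed by the authors from count, gene length and depth. The strand setting and annotation release are not given in the sources used here. The authors' DESeq2 1.20.0 tables of fold changes and p-values were not used.

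Groups and replicate numbers came from the sample labels. Library totals were 18459692 to 25178477 counts, and replicates of a group differed by more than counting noise. Each comparison was fitted on its own 6 libraries (all 12 for the difference of dex effects) over all genes with edgeR 4.0.16 (R 4.3.3): TMM factors, filterByExpr at a minimum count of 10, and the quasi-likelihood test. Genes were called at a Benjamini-Hochberg adjusted p of 0.05 or less, two-sided. The fits were tested on simulated data. DESeq2 1.42.0, limma 3.58.1 on log2(FPKM + 0.1), other scalings and filters, a replicate block and leaving out each library were alternatives. All 10 clock genes are named whatever their values, and a clock-associated gene where called with dex. The members and lists were chosen with earlier results of these data known. Member coordinates were identical in GENCODE M21, which gave exon overlaps. P-values measure the spread between libraries, each a pool of litters.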

Additional observations from a re-analysis of the deposited data

Results flagged for a closer look

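Of the clock genes, 2 were picked out because their dex effect differed between germ and somatic cells in a test of the difference itself. For Per1 the dex effect in germ cells minus that in somatic cells was -0.60 on the log2 scale (SE 0.12, edgeR adjusted p = 0.0282), from 0.10 in germ cells and 0.74 in somatic cells. For Nr1d2 it was 0.85 (SE 0.17, edgeR adjusted p = 0.0303), from 0.11 in germ cells and -0.70 in somatic cells. Both calls were close to the threshold, and each was lost with limma-trend and in several fits with a library left out. The somatic markers that differed between dex and saline are given with the somatic results, and their part in these differences was not tested. No group has more than 3 libraries, so no test for a library standing apart was applied.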

How the results depend on the processing

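Each clock gene value was recomputed under up to 8 other settings and with each library left out, 750 values in all, of which 694 kept their direction and side of the threshold, 36 lost a call, 11 gained one and 9 changed sign. Those that changed sign were all uncalled. With libraries left out, the log2 fold change in germ cells ran from -0.054 to 0.086 for Per3 and from -0.35 to 0.039 for Dbp, in somatic cells from -0.023 to 0.097 for Cry2 and from -0.037 to 0.13 for Dbp, and for the difference of dex effects from -0.18 to 0.055 for Cry1 and from -0.38 to 0.00093 for Dbp. Cry2 in somatic cells was -0.026 with library totals.

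The number of clock genes called with dex in somatic cells went from 4 to 2 with limma-trend on FPKM (Per3 adjusted p = 0.18), and was 3 or 4 with a library left out. For the difference of dex effects it was 2, against 4 with DESeq2 (Per2 and Per3 added), 3 (Per3 added) with library totals, without a filter and with 10 counts in every library, 0 with limma-trend, and 0 to 2 with a library left out. Whether equal replicate numbers mark the same pool is not given in the labels. Same-number correlations of deviations from the group mean were -0.088 to 0.044 in the 2 dex and 2 population comparisons. For germ against somatic cells in saline they were 0.037 to 0.044, above all different-number values (-0.028 to -0.0088). In dex libraries they were -0.016 to -0.0030, against -0.010 to 0.025 for different numbers. These values do not settle whether the libraries are paired. Between germ and somatic cells the number of clock genes called was 9 with saline, against 9 or 10 in the other settings. With dex it was 10, against 9 or 10, Per2 being the gene that changed. With a replicate block, 0, 4, 9 and 9 clock genes were called in these 4 comparisons and 1 for the difference of dex effects, where Nr1d2 had an adjusted p of 0.0586.

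Counts of all genes called moved more. With dex in germ cells edgeR called 231, against 711 with DESeq2, 767 without a filter, 6 with limma-trend, 65 with the replicate block, 142 in 1 fit of all 12 libraries, and 49 to 265 with a library left out. In somatic cells it called 655, against 976 with DESeq2, 1061 without a filter, 251 with limma-trend and 354 to 547 with a library left out. For the difference of dex effects it called 170, against 648 with DESeq2, 706 without a filter, 262 with 10 counts in every library, 57 with limma-trend, 104 with the replicate block and 79 to 172 with a library left out. The causes were not tested. Depth limits Dbp in germ cells most, at 54 to 112 counts a library.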

Other observations

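The 22 clock-associated genes were also read from the fits of germ against somatic cells. With saline, 17 of 21 tested were called, 14 higher and 3 lower in germ cells, where 76.5% of all genes tested were called (39.8% higher and 36.7% lower). With dex 20 of 21 were called, 17 higher and 3 lower, where 76.3% of all genes were called (40.5% higher and 35.7% lower). Their median log2 fold change of germ over somatic cells was 1.00 with saline and 1.03 with dex, beside 0.072 and 0.12 over all genes tested. Tef was among the lower ones, at 154 ± 8.34 CPM in saline germ against 320.1 ± 29.9 CPM in saline somatic libraries (SD, n = 3).

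Among 10249 protein-coding genes whose mean log2 CPM reached 3, those most like Per1 over the 12 libraries by Pearson correlation of log2 CPM were Nucb1 (r = 0.990), Pxmp4 (r = 0.985) and Adamts14 (r = 0.985). For Dbp they were Rin3, Copz2 and Smarcc2, and for Arntl Hspa9, Kdm3a and Tbpl1, each at r = 0.997. The 12 libraries form a germ and a somatic set, a split that all these correlations share, so they are given as a description.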
